A study of Mus musculus with 8 samples.

Results

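The genes of the circadian clock were followed in RNA-Seq data of mouse kidney tubuloids, which are 3D structures grown from tubule fragments in Matrigel. The 10 genes were chosen by symbol, as parts of the clock, and were *Arntl*, *Clock*, *Npas2*, *Per1*, *Per2*, *Per3*, *Cry1*, *Cry2*, *Nr1d1* and *Dbp*. All 10 were found among the 24063 gene symbols of the count tables, as 15 of 33068 RefSeq transcripts. Primary cell material came from kidneys of mice at postnatal day 7 to 10 and was cultured for 7 days in growth factor medium. In 4 GDNF cultures (numbers 6, 12, 17 and 22) glial-derived neurotrophic factor was added for a pulse of 24 h and then withdrawn. The 4 control cultures (numbers 3, 7, 14 and 21) had the same medium without GDNF.

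All 8 cultures carried the genotype Pkd2fl/fl Pax8rtTA TetOCre mTmG, in which doxycycline switches on Cre in the *Pax8* lineage of the tubular epithelium and *Pkd2* is then deleted. The labels of these cultures name no doxycycline. Nothing in the labels says that the cultures came from separate animals, so p-values measure only the spread between these cultures. The hour of harvest is not given in the sources used here. Total transcript counts lay between 72991721 and 97490625 per culture. The TMM factors (edgeR's correction for composition) were 0.963 to 0.982 in control cultures 7, 14 and 21 and 1.07 to 1.11 in the GDNF cultures. The groups thus did not overlap in this factor, on which all fold changes in CPM depend. Over all genes tested, the median log2 fold change of GDNF against control was 0.03 with TMM and 0.25 with library size only. Control culture 3 had the lowest factor, 0.790. Relative to the other controls, its tested genes with transcripts of at least 4000 bases were lower by a median log2 difference of -0.33, and its shorter genes higher by a median of 0.22. *Xist* RNA exceeded Y-linked RNA in controls 3 and 7 and in GDNF cultures 6 and 12. In the others Y-linked RNA was the higher, so that each group held 2 cultures of each kind. Tubular epithelium markers (7 genes, among them *Cdh16* and *Pax8*) summed to 482 to 3464 CPM (normalised read counts per library total) in controls and 998 to 1857 CPM after GDNF, and all were detected in every culture. Stromal markers (7 genes, among them *Col1a1* and *Pdgfrb*) summed to 552 to 3375 CPM in controls and 464 to 2409 CPM after GDNF, and none was at 0. Control culture 14 had the lowest epithelial and the highest stromal sum, and control cultures 3 and 21 had the 2 highest epithelial sums, 3189 and 3464 CPM. The endothelial markers summed to 18.6 to 61.0 CPM and the immune markers to 6.62 to 25.2 CPM over both groups, with *Cd3e* at 0 throughout.

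The clock of mammalian cells is a feedback loop of transcription. The proteins of *Arntl* (also called BMAL1) and *Clock*, or its paralogue *Npas2*, bind E-boxes and switch on the *Per* and *Cry* genes, whose proteins return to the nucleus and block their own activators. A second loop runs through *Nr1d1*, whose protein REV-ERB alpha represses *Arntl* and *Npas2* at ROR elements, and *Dbp* carries the rhythm on through D-boxes. In a tissue that keeps time in step, the *Arntl* and *Npas2* transcripts therefore peak when those of *Nr1d1*, *Dbp* and the *Per* genes are low. In the kidney, the clock is known for its part in the daily rhythm of salt and water transport.

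The elements of this loop could be read in the promoters of the members. RefSeq windows on GRCm38.p6, 250 bases before to 50 bases after each start, were matched for 9 of the 10 members (13 windows) and were searched on both strands for the E-box CACGTG, the E-prime box AACGTG, the D-box TTATGTAA or TTACGTAA, and the ROR element TAGGTCA. The members below are shown because an element of the loop stood before their start. Each sequence is read 5′ to 3′ on the strand of the gene, with the match in capitals and 35 bases on either side.
Per1, E-box, chr11:69098748-69098823, plus strand: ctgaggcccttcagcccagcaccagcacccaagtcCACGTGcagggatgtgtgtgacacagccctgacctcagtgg
Cry1, E-box, chr10:85185074-85185149, minus strand: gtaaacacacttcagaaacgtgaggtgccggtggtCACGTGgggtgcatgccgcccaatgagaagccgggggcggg
Cry2, E-prime box, chr2:92434195-92434270, minus strand: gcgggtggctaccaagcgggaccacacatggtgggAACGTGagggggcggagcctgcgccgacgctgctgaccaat
Nr1d1, E-prime box, chr11:98775365-98775440, minus strand: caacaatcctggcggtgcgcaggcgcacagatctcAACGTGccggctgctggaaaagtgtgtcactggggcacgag
Per3, upstream D-box, chr4:151044828-151044905, minus strand: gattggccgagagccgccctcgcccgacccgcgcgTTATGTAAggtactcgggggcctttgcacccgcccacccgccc
Per3, downstream D-box, chr4:151044781-151044858, minus strand: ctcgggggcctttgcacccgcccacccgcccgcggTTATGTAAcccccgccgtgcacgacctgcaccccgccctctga

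The *Per1* E-box lay 166 bases before the start of 1 *Per1* window, and the other *Per1* window (69099902 to 69100201) held no match. The *Cry1* E-box lay 60 bases before the start, and a second match of *Cry1*, an E-prime box, stood 79 bases before it. The 2 D-boxes of *Per3* lay 205 and 158 bases before the start, and their windows overlap. A ROR element was found in 1 of the 2 *Arntl* windows, 30 bases after the start. Over all 32851 promoter windows, 7.15% held the E-box, 4.69% the E-prime box, 1.06% the D-box and 2.61% the ROR element. No match was found in the windows of *Clock*, *Npas2* and *Dbp*. These letters describe the sequence only, and no binding was measured.

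Levels were compared between genes in the authors' TPM values, which take transcript length into account. *Arntl*, the core activator, was the highest of the 10, with a mean of 12.3 TPM over the 8 cultures (8.19 to 15.6). It was followed by the output factor *Dbp* at 9.69 TPM (6.99 to 12.1), and *Arntl* was above *Dbp* in 7 of 8 cultures (adjusted p = 0.0469, exact paired permutation test, two-sided, adjusted over 9 neighbouring pairs). Then came the repressors *Cry2* at 8.04 TPM (3.07 to 12.1) and *Cry1* at 7.45 TPM (5.90 to 8.72), *Clock* at 5.96 TPM (1.81 to 9.93), *Nr1d1* at 5.37 TPM (2.60 to 9.14) and *Per3* at 4.58 TPM (1.13 to 6.69). Between *Dbp* and *Per3*, no neighbours in this order differed beyond their spread, with adjusted p between 0.0703 and 0.891 by the same exact test. A step followed below *Per3*, which exceeded *Per2* (mean 1.81 TPM, 0.717 to 3.18) in 8 of 8 cultures with a mean log2 ratio of 1.28 (SD 0.48; adjusted p = 0.0352, same exact test). *Per2* and *Per1* (mean 1.44 TPM, 0.468 to 2.39) did not differ beyond their spread (adjusted p = 0.176, same exact test). *Npas2* was the lowest at 0.928 TPM (0.236 to 1.47), below *Per1* in 8 of 8 cultures (adjusted p = 0.0352, same exact test). The smallest unadjusted p that 8 cultures allow in this test is 0.0078. None of these 3 calls passed the adjustment without control culture 3, 7 or 21 or GDNF culture 12 (adjusted p = 0.0938 for *Arntl* over *Dbp* and 0.0703 for the others, same exact test). *Arntl* over *Dbp* also did not pass without GDNF culture 6, 17 or 22 (adjusted p = 0.05625 each, same exact test). With a culture left out, it passed only without control culture 14 (adjusted p = 0.0352, same exact test). With 7 cultures the smallest unadjusted p is 0.0156, which *Per3* over *Per2* and *Per1* over *Npas2* had each time, so for these 2 pairs the test could go no lower. With a culture left out, their mean log2 ratios lay between 1.17 and 1.38 and between 0.53 and 0.65.

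**Figure D1:**
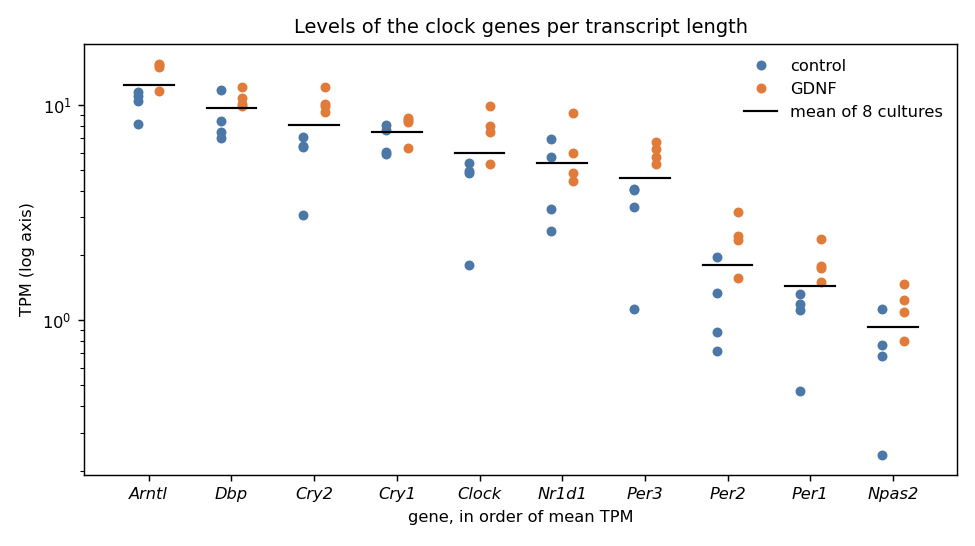
Level of each clock gene in TPM on a log axis, in order of the mean of 8 cultures (black line), with a point for each control and each GDNF culture. *Arntl* has the highest mean, 12.3 TPM, the 3 lowest genes are *Per2*, *Per1* and *Npas2*, and control culture 3 is the lowest point of *Npas2* (0.236 TPM) and *Per3* (1.13 TPM).

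The first question of the design was whether the GDNF pulse changed the clock genes. None of the 10 passed an adjusted p of 0.05 in the quasi-likelihood test of edgeR (Benjamini-Hochberg, 16557 genes), and of all genes tested 0% did. At an unadjusted p of 0.05, 2 members were higher after GDNF, *Cry2* and *Per3*, and none was lower, where the background was 9.25% of all genes higher and 22.1% in either direction. DESeq2 called 0 members and 1242 of the 8610 genes to which it gave an adjusted p, and 6 members had no adjusted p. At an unadjusted p of 0.05 it had 2 members, and the share of all genes at that p was not computed for DESeq2. The 4 GDNF cultures did not overlap with the 4 controls in CPM for the same *Cry2* and *Per3*, compared with 6.99% of all genes in that direction and 13.2% in either. The median log2 fold change was 0.43 over the 10 members and 0.03 over all genes tested.

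The 3 *Per* genes, which encode the period repressors, had higher means after GDNF. *Per3* (chromosome 4, 150997018 to 151044707, GRCm38) was at 17.6, 45.5, 45.8 and 35.4 CPM in control cultures 3, 7, 14 and 21, and at 51.6, 56.9, 52.2 and 57.4 CPM in GDNF cultures 6, 12, 17 and 22. Every GDNF culture lay above every control, and control culture 3 was far below the other controls. The 2 lowest controls of *Per3* and of *Cry2* were cultures 3 and 21, those with the high epithelial sums, and the part of cell makeup in this was not tested. The log2 fold change of *Per3* was 0.60 (SE 0.26, unadjusted p = 0.0465, adjusted p = 0.220, edgeR), and it was 0.37 without control culture 3. *Per1* (chromosome 11, 69095108 to 69109965) was at 3.71, 6.46, 7.64 and 6.38 CPM in controls and at 7.44, 8.17, 11.2 and 7.80 CPM after GDNF, so that only control culture 14 reached into the GDNF range. Its log2 fold change was 0.52 (SE 0.26, adjusted p = 0.260, edgeR). *Per2* (chromosome 1, 91415977 to 91459351) was at 3.59, 7.13, 4.88 and 2.99 CPM in controls and at 7.39, 9.30, 7.20 and 4.32 CPM after GDNF. The groups of *Per2* overlapped through the high control culture 7 and the low GDNF culture 22, and the log2 fold change was 0.60 (SE 0.33, adjusted p = 0.296, edgeR).

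The paralogous repressors *Cry2* and *Cry1*, partners of the PER proteins, had fold changes of opposite sign. *Cry2* (chromosome 2, 92403646 to 92434085) was at 10.5, 15.9, 17.7 and 15.0 CPM in controls and at 19.8, 19.8, 24.2 and 19.0 CPM after GDNF. No control reached the lowest GDNF culture. *Cry2* shares 295 exon bases (4.7% of its own, GENCODE M21) with *D930015M05Rik* on the opposite strand, which was at 1.40 to 3.11 CPM in controls and 2.88 to 4.08 CPM after GDNF, and the library kit does not mark strand. The log2 fold change of *Cry2* was 0.49 (SE 0.19, unadjusted p = 0.0268, adjusted p = 0.188, edgeR), the smallest p of the 10 members, and it was 0.35 without control culture 3. *Cry1* (chromosome 10, 85131700 to 85185054) was at 15.3, 14.5, 11.4 and 14.1 CPM in controls and at 10.2, 13.2, 12.9 and 11.9 CPM after GDNF, with overlapping groups. Its log2 fold change was -0.20 (SE 0.17, adjusted p = 0.495, edgeR), and with library size only in place of TMM the sign of *Cry1* turned to 0.02.

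Among the activators, *Arntl* (chromosome 7, 113178471 to 113314126) was the most even of the 10 genes in CPM. It was at 40.1, 37.3, 41.1 and 36.7 CPM in controls and at 35.4, 42.9, 44.7 and 41.4 CPM after GDNF, and the highest culture was 1.27 times the lowest. Only 2.40% of all genes tested had a lower biological coefficient of variation than the 16.6% of *Arntl*. The log2 fold change was 0.08 (SE 0.13, adjusted p = 0.727, edgeR). In TPM, which carries no correction for composition and in which the median of all genes tested was higher by 0.39 on the log2 scale after GDNF, the groups of *Arntl* did not overlap. There *Cry1* was more even over the 8 cultures (SD 1.18, mean 7.45 TPM) than *Arntl* (SD 2.67, mean 12.3 TPM). In TPM 4 members were without overlap and higher after GDNF, *Arntl*, *Per1*, *Per3* and *Cry2*, beside 20.6% of all genes in that direction and 21.2% in either. *Clock* (chromosome 5, 76209868 to 76305603), the partner of *Arntl*, was at 30.1, 65.1, 59.9 and 54.2 CPM in controls and at 55.3, 72.8, 77.4 and 91.1 CPM after GDNF. Its groups overlapped, and the log2 fold change was 0.50 (SE 0.24, adjusted p = 0.253, edgeR). *Npas2* (chromosome 1, 39193702 to 39363240) was at 0.845, 2.01, 2.95 and 1.64 CPM in controls and at 1.79, 3.07, 2.29 and 2.45 CPM after GDNF, with a log2 fold change of 0.37 (SE 0.38, adjusted p = 0.592, edgeR). Both groups of *Npas2* spanned nearly the same range once control culture 3 was set aside, and the log2 fold change was then 0.13.

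*Nr1d1* and *Dbp*, the direct E-box targets that swing most widely in rhythmic tissues, had, with *Arntl*, the smallest fold changes. *Nr1d1* (chromosome 11, 98767932 to 98775377) was at 6.18, 5.66, 11.98 and 9.21 CPM in controls and at 6.55, 6.69, 8.25 and 11.95 CPM after GDNF, with a log2 fold change of 0.02 (SE 0.30, adjusted p = 0.981, edgeR). *Dbp* (chromosome 7, 45705100 to 45710203) was at 10.1, 7.80, 12.3 and 8.19 CPM in controls and at 8.90, 8.47, 9.05 and 9.64 CPM after GDNF, with a log2 fold change of -0.09 (SE 0.19, adjusted p = 0.812, edgeR), whose sign turned with library size only (0.14). Control culture 14, with the highest stromal sum of markers, was the highest control for both genes. Whether its cell makeup had a part in these values was not tested, and fewer cells of a type cannot be told apart from less RNA per cell in such samples. Exons of other genes lie on the opposite strand of both. *Dbp* shares 539 exon bases (18.0% of its own) with *Sphk2*, which was at 56.0 to 79.2 CPM, and *Nr1d1* shares 263 exon bases (8.5%) with *Thra*, at 3.06 to 7.06 CPM. Reads from these stretches cannot be assigned to either gene.

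**Figure D2:**
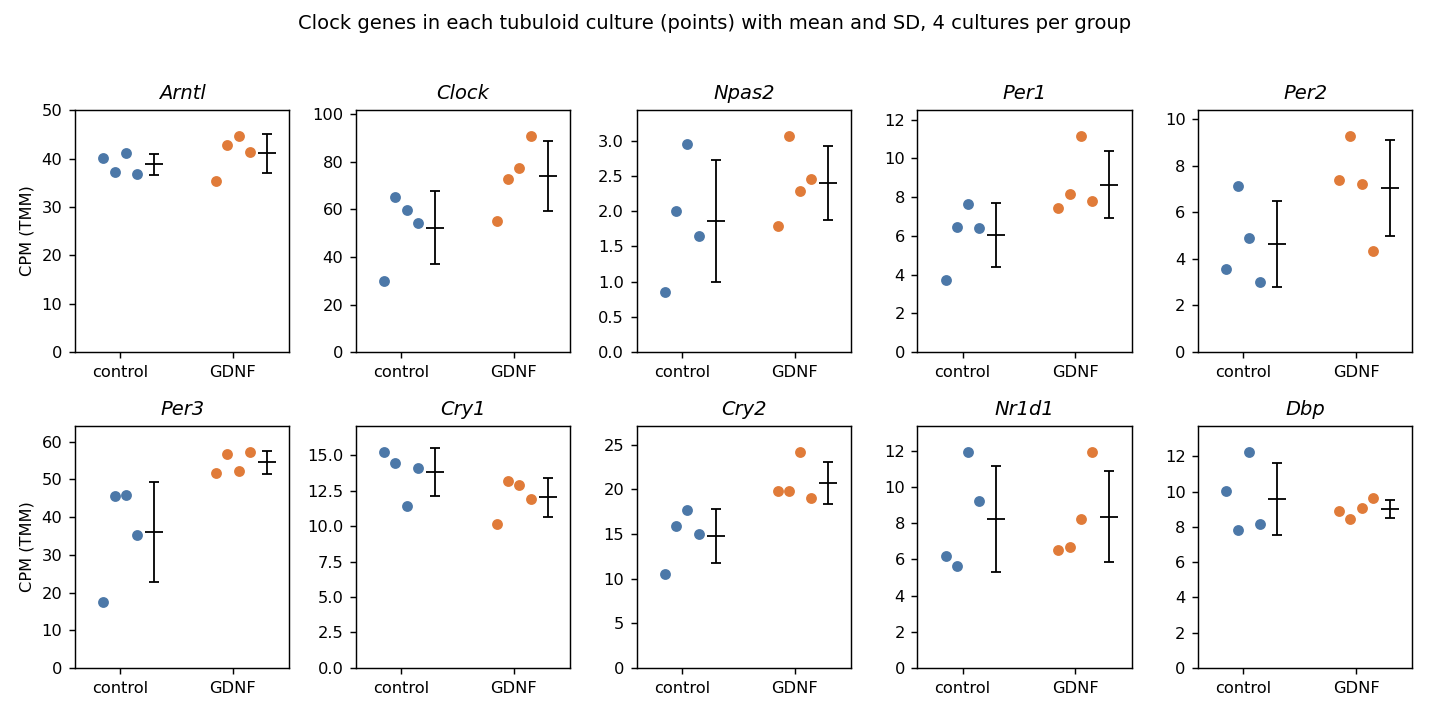
CPM with TMM normalization of the 10 clock genes, with a point for each of 4 control and 4 GDNF cultures and a bar for the mean and SD of the group, each axis starting at 0. *Per3* and *Cry2* are the genes whose groups do not overlap, and control culture 3, the first point of each control group, is the lowest control of *Clock*, *Npas2*, *Per1*, *Per3* and *Cry2*.

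The members divided by transcript length. The 6 members with a main transcript of at least 4000 bases (*Clock*, *Per3*, *Per2*, *Per1*, *Npas2* and *Cry2*, the last at 4001 bases) had log2 fold changes between 0.37 and 0.60 with a median of 0.51. The 4 shorter members (*Cry1*, *Arntl*, *Nr1d1* and *Dbp*, up to 3016 bases) lay between -0.20 and 0.08 with a median of -0.04. Over all genes tested, the median was 0.29 for the 4391 genes at or above 4000 bases and -0.09 for the 12166 below, so the same order was seen across the whole table. In control culture 3 the 6 long members were lower than in the other controls by a median log2 difference of -0.93, and the short members differed by 0.10. When the trend of each culture on transcript length was entered as an offset, chosen after seeing the data, the long members lay between 0.09 (*Clock*) and 0.34 (*Cry2*). In that fit 0 members had an unadjusted p under 0.05, and the share of all genes was not computed. Without control culture 3 the long members lay between 0.13 (*Npas2*) and 0.49 (*Per2*), all in the same direction. The 4000 base limit was set after the values were seen, and the division is a description without a test.

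**Figure D3:**
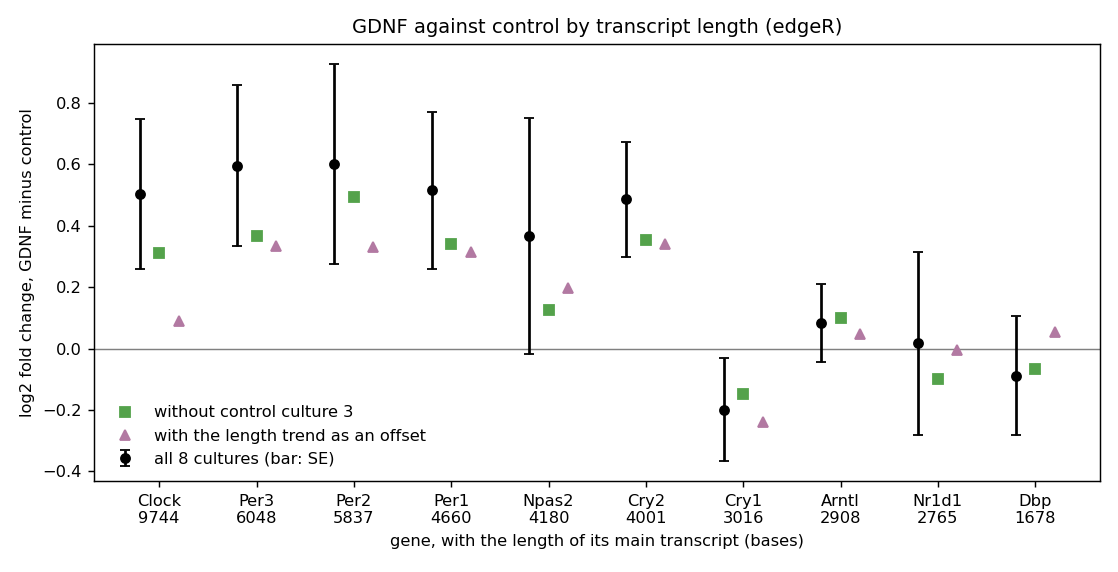
Log2 fold change of each clock gene, GDNF minus control, ordered from the longest to the shortest main transcript (length in bases under the name). Black points with SE bars are the fit of all 8 cultures, green squares the fit without control culture 3 and purple triangles the fit with the length trend as an offset, in which *Clock* moves from 0.50 to 0.09.

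The second question was whether genes of opposite phase moved apart between cultures. Of the 10 pairs of *Arntl* or *Npas2* with *Nr1d1*, *Dbp*, *Per1*, *Per2* or *Per3*, 0 had a negative Pearson r over the 8 cultures (log2 CPM, prior count 1), and 0 had a negative Spearman rho. Their r lay between 0.08 (*Npas2* and *Dbp*) and 0.90 (*Npas2* and *Per3*) with a median of 0.37. Without control culture 3 they lay between 0.26 and 0.80 with a median of 0.39, and *Npas2* had r = 0.59 with *Per3* and 0.41 with *Per1*, compared with 0.83 for *Per1* over all cultures. The 11 pairs grouped here as sharing a phase had a median r of 0.36, and 4 of them were negative. These were *Arntl* with *Npas2* and all pairs among *Nr1d1*, *Dbp* and the *Per* genes. The peak times within this coarse grouping need not be equal, so a negative r in it is not read as a departure from a clock. With values centred on the group means, 1 of the 10 opposite pairs was negative, *Arntl* and *Per3* at -0.08. None of the opposite pairs passed the permutation test after adjustment over the 45 pairs of members (smallest adjusted p = 0.087), so that neither a joint nor an opposed movement of these pairs was shown. Opposed movement that comes from a rhythm could appear only if each culture kept time in step and the cultures were harvested at different phases. A negative r by itself would not show a rhythm. The sources used here give neither, so the count of negative pairs does not show whether a clock ran.

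*Arntl* and *Nr1d1*, the activator and its direct repressor, had r = 0.31 (unadjusted p = 0.449, adjusted p = 0.594) and rho = 0.33 (p = 0.428, adjusted 0.566), both by exact permutation test over 40320 pairings. Without the 2 cultures farthest from the median of *Arntl*, r was 0.36. The log2 ratio of *Arntl* to *Nr1d1* spanned 0.94, from 1.78 in control culture 14 to 2.72 in control culture 7, and had a mean of 2.30 in controls (SD 0.48, n = 4) and of 2.34 after GDNF (SD 0.38, n = 4). *Arntl* and *Dbp* had r = 0.34 (p = 0.429, adjusted 0.585, same exact permutation test), and their log2 ratio spanned 0.60, between 1.74 and 2.34. Each of these ratios thus varied within a group by more than the means of the groups differed. The log2 ratios of pairs of members are of CPM, which is not divided by transcript length, and shared reads of *Arntl* count in each of its transcripts. They compare cultures and do not give the relative levels of the genes.

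**Figure D4:**
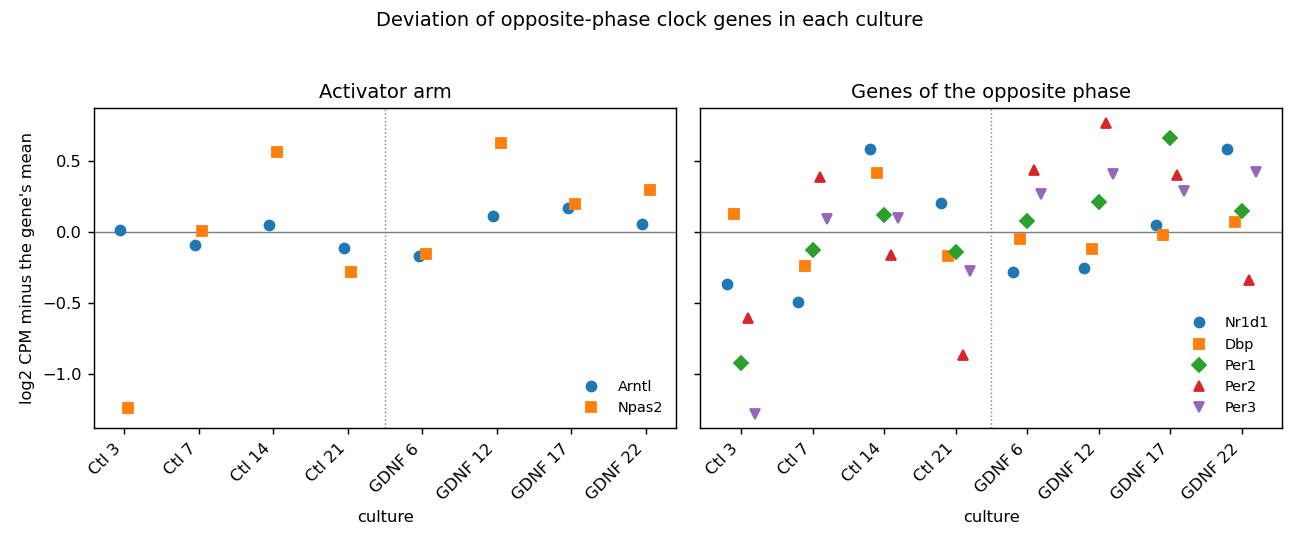
Deviation of log2 CPM from the mean of each gene in the 8 cultures, with *Arntl* and *Npas2* in the left panel and the genes of the opposite phase in the right panel. *Npas2* and *Per3* are both lowest in control culture 3 (-1.24 and -1.28), *Arntl* stays between -0.17 and 0.17, and *Nr1d1* and *Dbp* are both highest in control culture 14.

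The pairs that did move together were long genes. Of the 45 pairs, 3 passed the exact permutation test on Pearson r after adjustment, and by Spearman's rho 0 did (smallest adjusted p = 0.1004). *Per1* and *Cry2* had r = 0.98 (adjusted p = 0.0190, exact permutation test) and rho = 0.93 (adjusted p = 0.1004), and kept r = 0.95 without control culture 3, 0.91 without the 2 cultures farthest from the median of *Per1* and 0.98 after centring on the group means. Their log2 ratio spanned only 0.39 over the cultures. *Clock* and *Per3* had r = 0.93 and *Per3* and *Cry2* had r = 0.91 (adjusted p = 0.0443 each, exact permutation test), with rho of 0.88 and 0.83 (adjusted p = 0.109 and 0.138). These fell to 0.72 and 0.74 without control culture 3, and to 0.66 and 0.54 without the 2 cultures farthest from the median. After centring on the group means they were 0.89 (unadjusted p = 0.0174) and 0.85 (unadjusted p = 0.102, permutation within groups). All 15 pairs among the 6 long members had a positive r with a median of 0.85, which was 0.54 without control culture 3 and 0.73 with the length trend as an offset. The 24 pairs of a long with a short member had a median of 0.00, which was 0.14 without control culture 3 and 0.36 with the offset, so that the gap between these kinds of pairs depended on the setting. Correlations were not computed within the 4 *Xist* or the 4 Y-linked cultures. With values centred on the means of these kinds, chosen after seeing the data, the r of the 3 pairs was 0.99, 0.94 and 0.91.

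The negative correlations of the matrix centred on *Cry1*, which had a negative r with 8 of the other members. The lowest were those with *Per3* and *Cry2*, each at -0.62 (p = 0.0922 and 0.0968, adjusted 0.311, exact permutation test), and neither passed. *Nr1d1* and *Per2*, which were only grouped here as sharing a phase, had r = -0.43 (p = 0.283, adjusted 0.578, same exact test). Their log2 ratio spanned 2.10, from -0.47 in GDNF culture 12 to 1.62 in control culture 21. *Nr1d1* and *Dbp* had r = 0.59 (p = 0.116, adjusted 0.347, same exact test), which was -0.07 without control culture 14 and GDNF culture 22, so that the relation rested on those cultures. It was 0.75 without control culture 3 and 0.87 with the length offset.

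**Figure D5:**
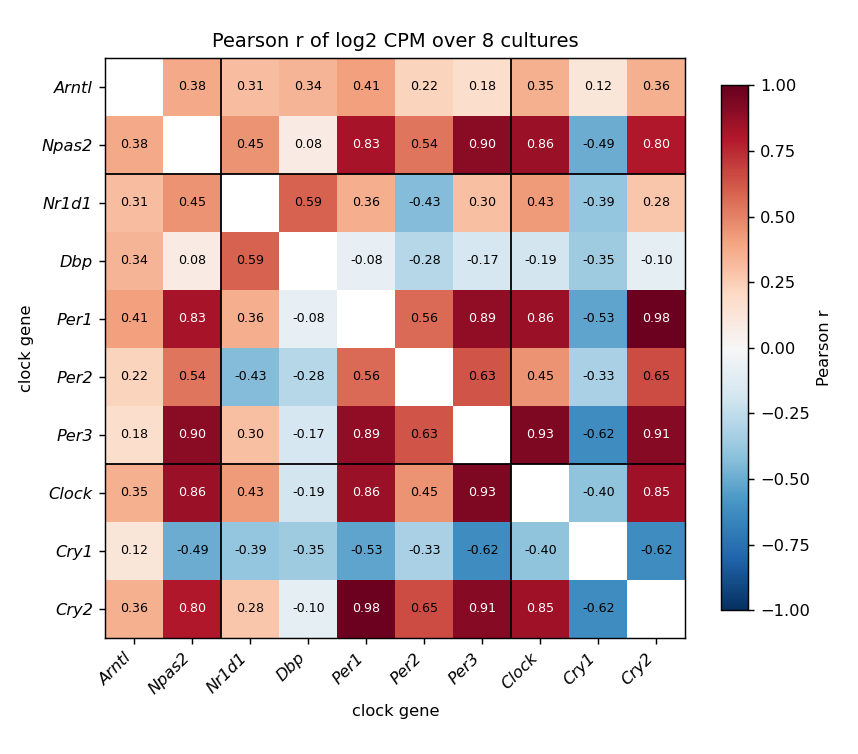
Pearson r of log2 CPM over the 8 cultures for each pair of clock genes, from -1 (blue) to 1 (red). Black lines set apart *Arntl* and *Npas2*, the 5 genes of the opposite phase, and *Clock*, *Cry1* and *Cry2*. The block between the first 2 sets holds no negative value (0.08 to 0.90), and the highest value is 0.98 for *Per1* and *Cry2*.

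*Nr1d1* separated by the kind of culture. It was at 5.66 to 6.69 CPM in the 4 cultures with *Xist* RNA and at 8.25 to 11.98 CPM in the 4 cultures with Y-linked RNA, without overlap. It was the only member to do so, where 5.63% of all genes tested did, and the split was noticed after the values were seen and was not tested. For *Per3* the log2 difference between GDNF and control means was 0.94 among the *Xist* cultures and 0.44 among the Y-linked ones, and for *Cry2* it was 0.61 and 0.40, with 2 cultures per group in each.

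The genes whose pattern over the 8 cultures was most like that of *Arntl*, among 11452 others with a mean of at least 5 CPM, were *Arap3*, *Fam189b*, *Xpot*, *Nr4a1* and *Mlec*, with Pearson r of 0.91 to 0.93. Those most like *Dbp* were *Eva1b*, *Mgat1*, *Flot1*, *Fkbp9* and *Dkk3*, with r of 0.92 to 0.94, and all 5 were highest in control culture 14, as *Dbp* was. These were the highest of many values and are given as descriptions.

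The wider clock was followed in a list of 25 further loop genes and regulators. None passed the adjusted p, and the median log2 fold change was 0.12. At an unadjusted p of 0.05, 2 of the 25 were higher after GDNF, beside 9.25% of all genes, and none was lower. *Hlf*, a relative of *Dbp* that binds the same D-boxes, was at 0.249, 0.136, 0.278 and 0.417 CPM in controls and at 0.669, 0.489, 0.585 and 0.694 CPM after GDNF, without overlap but at a low level (log2 fold change 1.17, SE 0.47, adjusted p = 0.195, edgeR). *Arntl2*, the paralogue of *Arntl*, was at 49.7 ± 16.0 CPM in controls and 75.9 ± 16.7 CPM after GDNF (SD, n = 4; log2 fold change 0.61, SE 0.25, adjusted p = 0.205, edgeR), with control culture 3 lowest at 29.9 CPM.

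The other genes of the loop gave no common direction. *Nr1d2*, the paralogue of *Nr1d1*, had a log2 fold change of -0.10 (SE 0.25). The E-box repressors *Bhlhe40* and *Bhlhe41* were at -0.04 (SE 0.23) and 0.60 (SE 0.37). *Nfil3*, the D-box repressor, was at -0.30 (SE 0.19), the D-box activator *Tef* at 0.36 (SE 0.21) and *Ciart*, a repressor of the CLOCK complex, at -0.06 (SE 0.23). Their adjusted p lay between 0.322 and 0.932 (edgeR, Benjamini-Hochberg adjustment over all genes). Of 16 genes known as clock outputs or clock-linked genes in kidney and other tissues, 15 could be tested and none passed the adjusted p, with a median of -0.01. At an unadjusted p of 0.05, 2 of the 15 were lower, beside 12.9% of all genes, and none was higher. *Nampt*, the rate-limiting enzyme of NAD salvage, was at 63.0, 47.0, 55.2 and 30.9 CPM in controls and at 16.5, 34.8, 34.1 and 27.7 CPM after GDNF (log2 fold change -0.79, SE 0.27, adjusted p = 0.169, edgeR). *Tsc22d3*, a glucocorticoid-induced gene, was at 66.4 ± 22.6 CPM in controls and 44.9 ± 6.72 CPM after GDNF (SD, n = 4; log2 fold change -0.56, SE 0.24, adjusted p = 0.208, edgeR). The groups overlapped for both genes.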

How the data were processed

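RNA-Seq of 8 tubuloid cultures (4 GDNF, 4 control) was analysed, with groups taken from the sample titles. SMART-Seq v4 libraries were mapped to mm10, and the submitters' processing notes name STAR, featureCounts and DESeq2 without a version. For each RefSeq transcript the authors deposited a whole, unnormalized count. Their deposited FPKM served here only for transcript lengths, and the deposited TPM values were scaled by the authors within each culture. Rules for reads that fit several genes are not given in the sources used here.

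Counts were summed per symbol. Reads shared by transcripts of a gene appear in each, so sums over the 4 members with several transcripts count them repeatedly. The main test was edgeR 4.0.16 in R 4.3.3 (filterByExpr, TMM, glmQLFit, glmQLFTest, 16557 genes, Benjamini-Hochberg threshold 0.05). CPM values use TMM factors. TPM is that of each gene’s most counted transcript (pseudocount 0.1 for log ratios). Neighbours in level were compared by exact sign flips (256) and pairs of members by exact permutation, two-sided, each Benjamini-Hochberg adjusted. At these totals counting error is small beside the spread between cultures, apart from genes such as *Hlf*.

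The members, lists and tests were chosen with earlier results of these data known. Named were all 10 members, 8 set loop genes (1 of them not reported here), other listed genes with an unadjusted p of 0.05 or without overlap, and the 5 genes most like *Arntl* and *Dbp*. Alternatives were DESeq2 1.42.0, other size factors, library size only, other low-count filters, one transcript per gene, kind of culture as a covariate, other scales, prior counts and pseudocounts, each culture left out, and, added after seeing the data, a length offset (spline, 5 degrees of freedom) and correlations centred on the kind of culture. Scripts were tested on simulated data. Gene and promoter positions are from RefSeq on GRCm38.p6, of which mm10 is the equivalent; shared exons are from GENCODE M21.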

Additional observations from a re-analysis of the deposited data

Results flagged for a closer look

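*Cry2* was at 24.2 CPM in GDNF culture 17, where the other GDNF cultures lay at 19.0 to 19.8 CPM, a gap larger than Dixon's 95% criterion for 4 values allows. Of 20 groups of 4 values examined, 2 groups for each member, this was the one in which a culture stood apart, and chance alone gives about 1 in 20. *Per1* was also highest in that culture, at 11.2 CPM.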

How the results depend on the processing

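The number of members that passed an adjusted p of 0.05 was 0 under all 16 alternatives. In the main fit no gene at all passed (smallest adjusted p = 0.167, edgeR), and DESeq2 gave 6 members no adjusted p. The count therefore says little about the members. The number at an unadjusted p of 0.05, which was 2, became 1 with DESeq2 size factors in edgeR, 5 with library size only and 0 with the length trend as an offset, and lay between 0 and 4 with each culture left out (0 without control culture 21 or GDNF culture 17). The share of all genes at that p was computed for the main fit only (22.1% in either direction, edgeR). With library size only, the median log2 fold change of all genes tested was itself 0.25. These counts are therefore not read as results about the members. The log2 fold change turned sign for *Cry1* with library size only (0.024), for *Dbp* with library size only (0.14), with the length offset (0.0536) and without control culture 14 (0.0534), and for *Nr1d1* with DESeq2 (-0.0024), its size factors (-0.0010), the length offset (-0.0049) and without control culture 3 (-0.10), control culture 7 (-0.13) or GDNF culture 22 (-0.21). With each culture left out, *Dbp* lay between -0.20 and 0.0534 and *Nr1d1* between -0.21 and 0.25. The cause was not tested. For the other 7 members it kept its direction under all 16. Members without overlap numbered 4 in TPM (21.2% of all genes), and between 2 and 5 with a culture left out (13.9% to 25.2% of all genes): 4 without control culture 14 (17%) and 5 without GDNF culture 6 (25.2%). Opposite-phase pairs with a negative r numbered 1 after centring on the group means, 1 after centring on the kind of culture (chosen after seeing the data), and 0 or 1 with a culture left out, where *Npas2* and *Dbp* reached -0.43 without control culture 14 and *Arntl* and *Per2* -0.03 without control culture 21. Their median r was 0.80 in TPM and 0.66 with library size only. Neighbours in level that did not differ numbered 6, 3 with TPM summed over transcripts, and between 5 and 9 with a culture left out. With the kind of culture as a covariate, 3 members had an unadjusted p under 0.05, again without a share over all genes. No paired analysis was run, because the groups share no culture numbers and the kind of culture does not pair single cultures. Among the cultures with *Xist* RNA, Y-linked RNA was found only in control culture 3 and GDNF culture 6. Whether single control and GDNF cultures shared an origin was not tested, and the main test and the correlations treat the cultures as unrelated.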
